A study of Mus musculus with 18 samples.

Results

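Muscle cells keep calcium in the sarcoplasmic reticulum, and the 9 mouse genes described here encode the pumps that fill this store, the small peptides that restrain the pumps and the proteins that hold calcium inside it. They are the SERCA calcium pumps Atp2a1, Atp2a2 and Atp2a3, phospholamban (Pln) and sarcolipin (Sln), the calsequestrins Casq1 and Casq2, the histidine-rich calcium-binding protein (Hrc) and sarcalumenin (Srl). A probe set was taken as a member where the platform annotation gave it exactly 1 gene symbol and that symbol was one of these names. Each gene had 1 such probe set, so the members were 9 of the 18781 genes that the annotation names in this way, and 9 of the 35382 probe sets on the array.

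The study asked how transgenic expression of TN-XXL, a fluorescent calcium indicator protein built on troponin C, changes gene expression in muscle and brain. Total RNA of skeletal muscle, heart and hippocampus from transgenic mice and from wild type littermates was hybridised to Affymetrix arrays, with 3 arrays in each of the 6 groups of genotype by tissue and 18 arrays in all. The labels mark the transgenic arrays as +/+ and the others as wt. Both genotypes carry the C57BL/6 strain background, and the transgenic groups differ from their littermate controls by the TN-XXL transgene alone as far as the labels describe them. The sources used here give neither the promoter that drives the indicator nor the number of founder lines, the ages of the mice or which skeletal muscle was taken. They also do not say whether the 3 arrays of a group came from separate mice, so a p-value here weighs a difference against array-to-array spread that may be technical.

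SERCA pumps use ATP to move calcium from the cytosol back into the reticulum and so end each contraction. Atp2a1 is the pump of fast skeletal fibres, Atp2a2 that of heart and slow fibres and, as a splice form, of most other cells including neurons, and Atp2a3 is found mainly outside muscle. Phospholamban, chiefly in ventricle and slow fibres, and sarcolipin, chiefly in atrium and skeletal muscle, bind the pump in the membrane and lower its activity, while Casq1 and Casq2 are the skeletal and cardiac forms of the main calcium buffer in the store.

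Promoter sequences from RefSeq (build GRCm38.p6) were matched by symbol for 6 of the 9 members. The 250 bases before the annotated start are printed 5′ to 3′ on the gene's own strand for the matched members whose level differed most between tissues, to set the upstream sequence of the genes high in skeletal muscle beside that of the genes high in heart. Atp2a1 lies on the minus strand at chr7:126463074-126463323 and Casq1 on the minus strand at chr1:172219896-172220145. Pln lies on the plus strand at chr10:53337436-53337685, Casq2 on the plus strand at chr3:102086165-102086414 and Hrc on the plus strand at chr7:45335019-45335268. Capitals mark each E-box, the letters CANNTG that basic helix-loop-helix factors bind.
Atp2a1: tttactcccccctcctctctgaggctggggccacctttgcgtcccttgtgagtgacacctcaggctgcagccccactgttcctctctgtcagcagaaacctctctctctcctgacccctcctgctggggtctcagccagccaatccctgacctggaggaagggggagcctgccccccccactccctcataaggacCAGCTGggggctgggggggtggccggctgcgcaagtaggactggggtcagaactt
Casq1: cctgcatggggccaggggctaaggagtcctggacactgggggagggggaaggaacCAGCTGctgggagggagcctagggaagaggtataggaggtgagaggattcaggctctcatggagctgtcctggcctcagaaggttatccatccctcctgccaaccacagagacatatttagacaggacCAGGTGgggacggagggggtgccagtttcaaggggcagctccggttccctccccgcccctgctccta
Pln: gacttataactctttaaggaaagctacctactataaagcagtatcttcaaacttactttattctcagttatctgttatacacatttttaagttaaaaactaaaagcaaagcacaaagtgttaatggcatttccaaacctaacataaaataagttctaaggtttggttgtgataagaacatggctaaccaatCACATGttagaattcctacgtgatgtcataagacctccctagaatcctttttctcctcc
Casq2: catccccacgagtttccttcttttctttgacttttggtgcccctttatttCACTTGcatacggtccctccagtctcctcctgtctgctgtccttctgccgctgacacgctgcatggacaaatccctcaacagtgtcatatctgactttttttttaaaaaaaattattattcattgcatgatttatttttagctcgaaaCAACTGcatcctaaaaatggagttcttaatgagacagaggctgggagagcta
Hrc: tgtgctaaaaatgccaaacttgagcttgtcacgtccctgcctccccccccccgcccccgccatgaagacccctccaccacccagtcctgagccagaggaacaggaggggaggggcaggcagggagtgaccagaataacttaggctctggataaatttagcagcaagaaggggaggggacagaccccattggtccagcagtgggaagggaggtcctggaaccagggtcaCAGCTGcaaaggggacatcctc

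Positions are counted back from the annotated start, the base just before it being position -1, and both strands were searched. The window of Atp2a1 held 1 E-box, beginning at -55, and that of Casq1 held 2, at -195 and -67. Among the genes high in heart, Pln held 1 at -59, Casq2 held 2 at -200 and -52, and Hrc, high in both muscles, held 1 at -22. An E-box is common in such windows: 66.2% of the 32536 promoters in the table held at least 1, so these matches do not set the members apart. The E-box form CACGTG, which is one case of CANNTG, was in none of the 6 matched members and in 6.04% of all promoters. The MEF2 consensus was matched in Casq2 alone, at -69, against 2.89% of all promoters, and the CArG box in none of the 6 against 1.48%. The letters GATAA were found in Pln at -183 and -81, in Casq1 at -112 and in Hrc at -102, against 22.5% of all promoters, and TATAAA in Pln at -219, against 12.3%. None of these matches overlapped another, and a match describes the letters and not a bound site.

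Values are the submitters' RMA log2 values, on which a difference of 1 is a doubling, and levels of different probe sets are not set against each other. Array medians ran from 2.44 to 2.49 in skeletal muscle, from 2.61 to 2.63 in heart and from 3.68 to 3.71 in hippocampus, so tissue differences were also computed after centring each array on its median and after quantile normalization. Arrays of 1 group correlated at 0.982 to 0.993 over all probe sets. The labelled tissues carried their markers: 11 of 11 fast fibre genes were lower in wild type heart than in wild type skeletal muscle, 8 of 8 measured heart muscle genes were higher in heart, and 12 of 12 hippocampal neuron genes were higher in hippocampus than in either muscle. All tests are limma moderated tests in 1 model over the 18 arrays, two-sided, with Benjamini-Hochberg adjustment over all 35382 probe sets, and "called" means an adjusted p under 0.05.

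**Figure D1:**
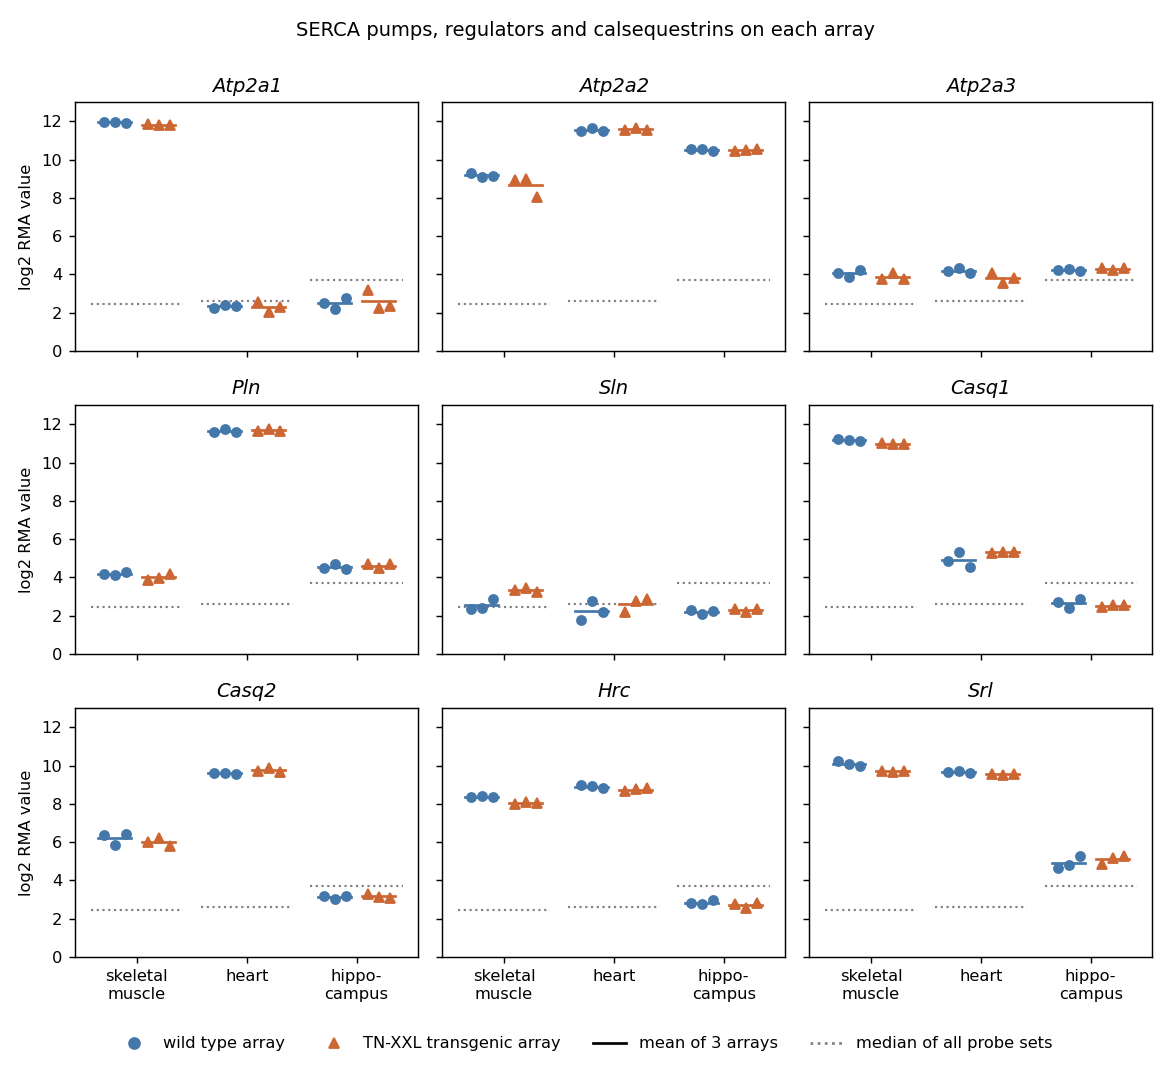
Log2 RMA value of each of the 9 genes (vertical axis) on each of 18 arrays, by tissue (horizontal axis), with circles for wild type and triangles for TN-XXL transgenic arrays, solid bars for the mean of 3 arrays and dotted lines for the median of all probe sets. Atp2a1 and Casq1 are high in skeletal muscle, Pln and Casq2 in heart, Hrc and Srl in both muscles, Atp2a2 in all 3 tissues, and Sln lies near or below the dotted line in every wild type group.

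The tissues were first compared in wild type mice. Skeletal muscle carried Atp2a1 and Casq1, heart carried Pln, Atp2a2 and Casq2, and hippocampus shared only Atp2a2 with the muscles at a high level. Of the 9 members, 4 were called higher and 3 lower in heart than in skeletal muscle, where 38.7% of all probe sets were called (25.6% higher and 13.1% lower). Hippocampus stood above skeletal muscle for 2 members and below it for 5, against 78.2% of all probe sets called (70.1% higher and 8.10% lower). It stood below heart for 6 members and above it for none, against 76.8% of all probe sets called (67.3% higher and 9.46% lower). These are whole-tissue samples, in which fewer cells of a type and less RNA per cell cannot be told apart.

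Among the pumps, Atp2a1 averaged 11.95 ± 0.01 (SD, n = 3) in skeletal muscle, 2.33 ± 0.10 in heart and 2.50 ± 0.28 in hippocampus. The fall from skeletal muscle to heart was 9.62 ± 0.20 (SE) on the log2 scale, adjusted p = 9.4e-15, and 2 of the 35382 probe sets, Atp2a1 among them, differed by this much or more. In heart and hippocampus it lay below the array median, and the difference between those tissues as deposited was 0.16 ± 0.20 (adjusted p = 0.473), which centring turned to -0.92 and quantile normalization to -0.52, both called.

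Atp2a2 was high in all 3 tissues, with 11.56 ± 0.07 in heart, 10.53 ± 0.06 in hippocampus and 9.19 ± 0.12 in skeletal muscle (SD, n = 3). Heart exceeded skeletal muscle by 2.37 ± 0.18 (SE, adjusted p = 2.6e-08), and hippocampus lay below heart by a difference of -1.02 ± 0.18 (adjusted p = 8.4e-05). Whether the lower pair was told apart depends on scaling: hippocampus exceeded skeletal muscle by 1.35 as deposited and 1.07 after quantile normalization, both called, but by 0.09 after centring (adjusted p = 0.651). Atp2a3 read 4.07 ± 0.18 in skeletal muscle, 4.20 ± 0.12 in heart and 4.22 ± 0.05 in hippocampus, and no pair of neighbours in that order differed beyond its error. Its heart minus skeletal muscle difference of 0.13 turned to -0.05 with centred and -0.26 with quantile normalized arrays, none of them called. Its hippocampal level lay below both muscles once arrays were centred (-1.12 and -1.07) or quantile normalized (-1.40 and -1.14), all 4 called.

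The pair of pump inhibitors behaved differently from each other. Pln averaged 11.66 ± 0.09 in heart, 4.56 ± 0.14 in hippocampus and 4.19 ± 0.08 in skeletal muscle (SD, n = 3), so heart stood 7.47 ± 0.10 (SE) above skeletal muscle (adjusted p = 5.1e-17), a difference that 24 probe sets, Pln included, matched or exceeded. The small excess of hippocampus over skeletal muscle, 0.37 ± 0.10 with adjusted p = 0.00336, became a deficit under both other scalings, -0.89 and -1.21. Sln was low throughout, at 2.55 ± 0.27 in skeletal muscle, 2.24 ± 0.51 in heart and 2.20 ± 0.10 in hippocampus, and none of its 3 tissue differences was called as deposited. Its heart minus skeletal muscle difference of -0.31 was called when wild type heart array 2 was left out (-0.58, adjusted p = 0.0376). Hippocampus fell below skeletal muscle once arrays were centred (-1.60) or quantile normalized (-1.20), and below heart once they were centred (-1.12), all 3 called.

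The calsequestrins divided the muscles between them. Casq1 averaged 11.17 ± 0.06 in skeletal muscle, 4.91 ± 0.38 in heart and 2.66 ± 0.25 in hippocampus (SD, n = 3), and each step down was called, by differences of -6.26 ± 0.15 (SE) to heart and -2.25 ± 0.15 from heart to hippocampus. Casq2 ran the other way between the muscles, with 9.59 ± 0.04 in heart, 6.20 ± 0.33 in skeletal muscle and 3.12 ± 0.07 in hippocampus. Its heart level exceeded that of skeletal muscle by 3.38 ± 0.14 (SE, adjusted p = 3.0e-11).

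Hrc and Srl, both proteins of the reticulum lumen, were at similar levels in the muscles and low in hippocampus. Hrc read 8.90 ± 0.07 in heart and 8.38 ± 0.04 in skeletal muscle, a called difference of 0.53 ± 0.09 (SE), against 2.83 ± 0.11 in hippocampus. Srl read 10.10 ± 0.13 in skeletal muscle and 9.68 ± 0.05 in heart, and this difference of -0.42 ± 0.14 (SE, adjusted p = 0.0262) lost its call when wild type muscle array 1 (adjusted p = 0.0953) or 2 (0.0621) or wild type heart array 1 (0.0595) or 3 (0.0725) was left out. In hippocampus Srl read 4.91 ± 0.34 and lay 5.19 ± 0.14 (SE) below skeletal muscle.

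**Figure D2:**
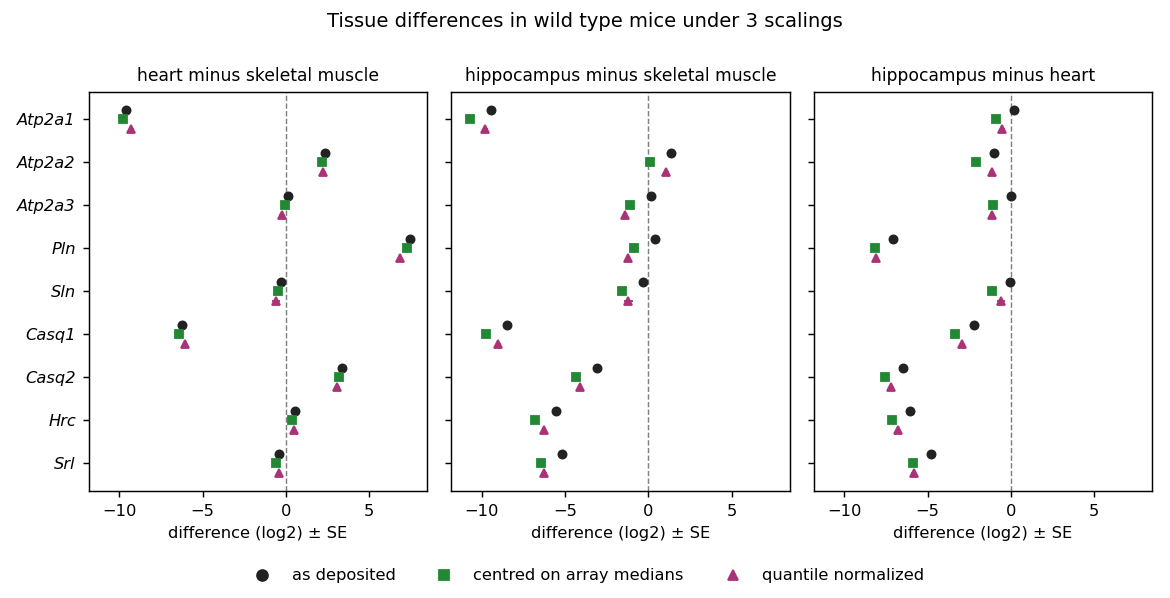
Differences between wild type tissues (horizontal axis, log2, with SE bars that are mostly narrower than the symbols) for each gene (vertical axis), as deposited (circles), after centring each array on its median (squares) and after quantile normalization (triangles). The fall of Atp2a1 by 9.62 and the rise of Pln by 7.47 from skeletal muscle to heart keep their direction and call (9.26 to 9.79 and 6.87 to 7.47 in size over the 3 scalings), whereas Atp2a3, Pln and Atp2a1 change side in comparisons with hippocampus and Atp2a3 also between heart and skeletal muscle.

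Scaling moved all probe sets in these tissue comparisons. Centring shifted the median difference of all probe sets by -0.17 between heart and skeletal muscle, -1.26 between hippocampus and skeletal muscle and -1.09 between hippocampus and heart, and quantile normalization by -0.10, -0.95 and -0.82. The share of calls that were higher went from 66.1% as deposited to 44.0% centred and 50.7% quantile normalized between heart and skeletal muscle. It went from 89.6% to 26.4% and 43.3% between hippocampus and skeletal muscle, and from 87.7% to 26.0% and 44.2% between hippocampus and heart.

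The genotypes were then compared within skeletal muscle. In TN-XXL transgenic muscle Sln was higher and Hrc lower than in wild type muscle, and the other 7 members did not pass the test. The 2 called members of 9 compare with 8.15% of all probe sets called (3.86% higher and 4.30% lower). Differences of 8 of the 9 were below 0, against 46.9% of all probe sets, and their median was -0.20, against 0.02 over all probe sets. The arrays of the genotypes did not overlap for 6 members, 1 higher and 5 lower in transgenic muscle, against 21.9% of all probe sets (11.6% higher and 10.3% lower).

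Sln, the peptide inhibitor of the skeletal pump, read 2.37, 2.42 and 2.86 on the wild type muscle arrays and 3.32, 3.46 and 3.24 on the transgenic ones. Every transgenic array lay above every wild type array, and the wild type values sat close to the array median of 2.45. The difference was 0.79 ± 0.22 (SE), 1.73-fold, with adjusted p = 0.0395. The call ended when any 1 array other than wild type muscle array 3 was left out, with adjusted p of 0.135 and 0.127 without wild type arrays 1 and 2 and of 0.0827, 0.120 and 0.0713 without transgenic arrays 1, 2 and 3, while the difference stayed between 0.70 and 0.95. It also ended when only the 6 muscle arrays were fitted (adjusted p = 0.0580), a fit that called 2.37% of all probe sets and no member.

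Hrc, which binds calcium in the lumen and also contacts the pump, read 8.38, 8.41 and 8.34 in wild type muscle and 7.98, 8.11 and 8.06 in transgenic muscle. The groups did not overlap, with an SD of 0.04 in wild type and 0.07 in transgenic muscle. The difference was -0.33 ± 0.09 (SE, adjusted p = 0.0270). Leaving out transgenic muscle array 2 kept the call, while leaving out any other array ended it, with adjusted p of 0.0715, 0.0881 and 0.0502 without wild type arrays 1, 2 and 3 and of 0.0943 and 0.0636 without transgenic arrays 1 and 3. The call also ended with array weights (adjusted p = 0.0599) and with the 6 muscle arrays alone (0.129).

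Atp2a2, in skeletal muscle the pump of slow fibres, read 9.32, 9.10 and 9.13 in wild type and 8.95, 8.98 and 8.06 in transgenic muscle. The groups did not overlap, but transgenic array 3 lay far below the other two transgenic arrays. The difference of -0.52 ± 0.18 (SE) had adjusted p = 0.0898 and became -0.22 (adjusted p = 0.182) without that array. It was called without transgenic array 1 (-0.67, adjusted p = 0.0416) or 2 (-0.68, 0.0335), both of which give array 3 more weight, and also when only probe sets with 1 symbol (adjusted p = 0.0412) or gene means (0.0385) were adjusted over.

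Some slow fibre genes were low on that array, and the mean log2 value of the slow fibre list was lowest there. This mean was 7.47 on transgenic muscle array 3, 8.04 and 8.27 on transgenic arrays 1 and 2, and 7.75 to 7.83 on the wild type muscle arrays. On transgenic muscle array 3 Myl3 read 7.30, against 7.98 to 8.57 on the other muscle arrays, and Tnnc1 read 7.46, against 7.93 to 8.49, the latter picked after its values were seen. The summed level of the 9 slow fibre genes measured is led by its brightest gene, Actn2, with a wild type muscle mean of 10.91. This sum ran from 11.93 to 12.03 on the wild type arrays. It was 12.24 and 12.41 on transgenic arrays 1 and 2, above every wild type array, and 11.87 on array 3. Atp2a2 lay below every wild type array on transgenic arrays 1, 2 and 3. None of the 9 slow fibre genes lay below the array median. Of these genes 1 was called, against 8.15% of all probe sets: Myl2, at 0.57 ± 0.16 higher in transgenic muscle (adjusted p = 0.0447). Its call ended without any 1 of wild type arrays 1, 2 and 3 or transgenic arrays 1 and 2 (adjusted p of 0.0641 to 0.184). None of the 11 fast fibre genes was called by limma or had an unadjusted p under 0.05, and their summed level ran from 14.52 to 14.62 in wild type and from 14.58 to 14.62 in transgenic muscle. The part of fibre composition in the member differences was not tested.

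**Figure D3:**
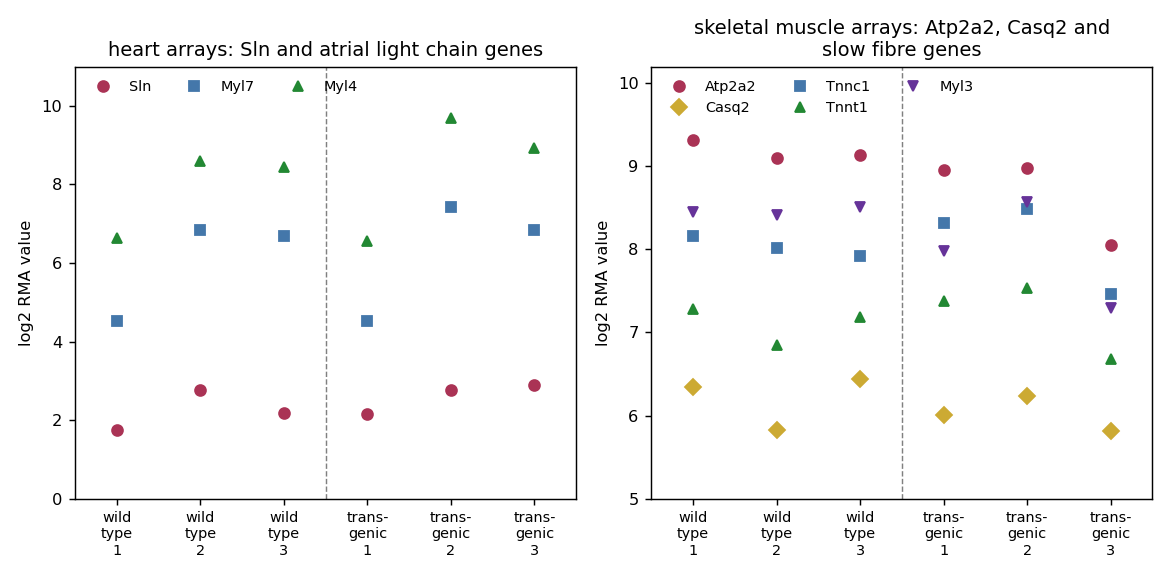
Log2 RMA values (vertical axis) on single arrays (horizontal axis): at left Sln with the atrial light chain genes Myl7 and Myl4 on 6 heart arrays, at right Atp2a2 and Casq2 with the slow fibre genes Tnnc1, Tnnt1 and Myl3 on 6 skeletal muscle arrays; each symbol is 1 gene and the dashed line separates wild type from transgenic. Array 1 of each heart group has the lowest Sln, Myl7 and Myl4 of its group, and transgenic muscle array 3 has the lowest Atp2a2 (8.06), Tnnc1 (7.46), Tnnt1 (6.68) and Myl3 (7.30).

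Srl, which stabilises the pump and binds luminal calcium, read 10.22, 10.11 and 9.97 in wild type and 9.73, 9.66 and 9.72 in transgenic muscle. Its groups were apart as well, yet the difference of -0.39 ± 0.14 (SE) had adjusted p = 0.110. Casq1 read 11.23, 11.17 and 11.11 against 11.03, 10.96 and 10.96, and Atp2a1 read 11.95, 11.96 and 11.94 against 11.89, 11.81 and 11.82. Both sets of transgenic arrays lay below all wild type arrays by little. The difference was -0.19 ± 0.15 (adjusted p = 0.580) for Casq1, and for Atp2a1 it was -0.11 with a 95% interval from -0.55 to 0.32 (adjusted p = 0.846). For Pln, Atp2a3 and Casq2 the genotypes overlapped, with differences of -0.20, -0.20 and -0.19 and adjusted p of 0.295, 0.470 and 0.554.

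Of 12 endothelial genes 4 were lower in the same comparison, Tek, Egfl7, Emcn and Cldn5, against 4.30% of all probe sets, and 8 did not pass the test. The summed level of the 12 was 10.19 to 10.35 in wild type and 9.77 to 10.12 in transgenic muscle, with none of the 12 below the array median. Tek and Egfl7 kept the call without any 1 muscle array, whereas Emcn lost it without 4 of the 6 arrays (adjusted p of 0.0636 to 0.156) and Cldn5 also without 4 (0.0588 to 0.161), so that the list's count ran from 2 to 6. With the 6 muscle arrays alone Tek was the 1 call (adjusted p = 0.0314), Egfl7 having 0.166. Of 10 smooth muscle genes 1 was lower, against the same 4.30%, and of 9 blood cell genes 0 were called or had an unadjusted p under 0.05. The part of a change in cell makeup in the values of Sln and Hrc was not tested.

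**Figure D4:**
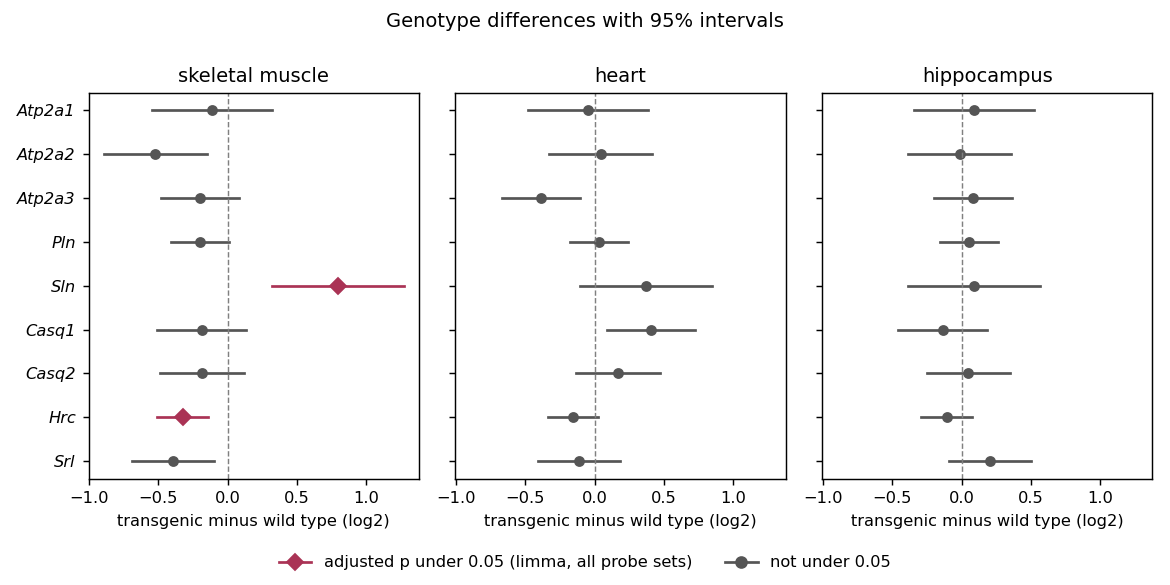
Transgenic minus wild type difference (horizontal axis, log2) of each gene (vertical axis) in skeletal muscle, heart and hippocampus, with 95% intervals from the limma model; diamonds mark an adjusted p under 0.05 over all probe sets. The 2 diamonds are Sln at 0.79 and Hrc at -0.33 in skeletal muscle, and the intervals of most members in heart and of all 9 in hippocampus include 0.

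In heart none of the 9 members was called by limma, against 3.19% of all probe sets. An unadjusted p under 0.05 was found for 2 members, against 15% of all probe sets. The 2 were Atp2a3, lower in transgenic heart, and Casq1, higher. The arrays of the genotypes were apart for 3 members, Casq2 higher and Atp2a3 and Srl lower, against 18.5% of all probe sets. The main cardiac members moved little: Atp2a2 differed by 0.04 with a 95% interval from -0.33 to 0.42, and Pln by 0.03 with an interval from -0.18 to 0.24.

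Casq1, the skeletal calsequestrin, read 4.86, 5.31 and 4.56 in wild type heart and 5.29, 5.32 and 5.34 in transgenic heart. The transgenic arrays agreed closely, and wild type array 2 lay among them. The difference of 0.41 ± 0.15 (SE) had adjusted p = 0.188, and it rose to 0.61 with adjusted p = 0.0216 without wild type heart array 2. It dropped to 0.23 without wild type heart array 3 (adjusted p = 0.509). The summed level of 11 fast fibre genes in heart was 6.28 to 6.37 on wild type and 6.91 to 7.10 on transgenic arrays, with 8 of the 11 below the array median in both. Of these 11 genes 1 was called, against 3.19% of all probe sets. It was the fast light chain gene Myl1, the brightest of the list in wild type heart, which was 1.52 ± 0.18 (SE) higher in transgenic heart (adjusted p = 0.000347). The median difference of the 11 was 0.029, against 0.003 over all probe sets. Their mean log2 value was 2.46 to 2.53 in wild type and 2.64 to 2.75 in transgenic heart. The part of skeletal fibre transcripts in the Casq1 value was not tested.

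Atp2a3 read 4.18, 4.33 and 4.09 in wild type and 4.08, 3.54 and 3.82 in transgenic heart. The groups were apart by a narrow margin between wild type array 3 and transgenic array 1. The difference was -0.39 ± 0.13 (SE, adjusted p = 0.147), and without transgenic heart array 1 it was -0.52 and called (adjusted p = 0.0472). Casq2, the cardiac calsequestrin, read 9.59, 9.62 and 9.54 against 9.70, 9.88 and 9.69, which is 0.17 ± 0.14 higher with adjusted p = 0.660. Hrc, called in skeletal muscle, differed by -0.16 ± 0.09 in heart (adjusted p = 0.424), and Srl by -0.11 ± 0.14 (0.796).

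Sln in heart read 1.76, 2.78 and 2.19 in wild type and 2.16, 2.77 and 2.88 in transgenic mice. The groups overlapped, and array 1 was the lowest of each group. The difference of 0.37 ± 0.22 (SE, adjusted p = 0.496) ranged from 0.13 to 0.64 over the leave-one-out fits, with the lowest value without wild type heart array 1. The atrial light chain gene Myl7 was lowest on the same arrays, with 4.52, 6.83 and 6.69 in wild type and 4.53, 7.42 and 6.84 in transgenic heart, as was Myl4 with 6.63, 8.60 and 8.45 and with 6.57, 9.70 and 8.92, both genes picked after their values were seen. Of the 12 atrial genes measured 2 were called, against 3.19% of all probe sets: Nppa at 1.36 ± 0.15 and Kcnj3 at 0.84 ± 0.10 higher in transgenic heart. The summed level of the list was 10.35 to 10.91 in wild type and 11.30 to 11.98 in transgenic heart. This sum is led by its brightest gene, Nppa, with a wild type heart mean of 9.70. The mean log2 value of the 12 overlapped between genotypes, at 5.25, 5.68 and 5.75 in wild type and 5.44, 6.13 and 6.03 in transgenic heart. In each genotype 1 of the 12 lay below the array median. With the heart arrays alone neither Nppa nor Kcnj3 was called (adjusted p of 0.0520 for Nppa and 0.0624 for Kcnj3). The part of atrial tissue in the Sln values was not tested.

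Other marker lists also held calls in heart, where 3.19% of all probe sets were called. Of 12 endothelial genes 2 were lower in transgenic heart, Tek and Cldn5, and 8 had an unadjusted p under 0.05, against 15% of all probe sets. The list's summed level was 11.41 to 11.48 in wild type and 11.02 to 11.22 in transgenic heart. Of 7 ventricular genes 2 were lower, Kcnip2 and Gja1, with a summed level of 12.46 to 12.56 in wild type and 12.28 to 12.43 in transgenic heart. None of these 4 genes was called with the heart arrays alone, and Tek and Cldn5 also lost the call without any 1 heart array other than transgenic array 1. None of the genes of these 2 lists lay below the array median, and their part in the member values was not tested.

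In hippocampus no member and none of the 35382 probe sets was called by limma (0.00%), and 0 members and 1784 probe sets had an unadjusted p under 0.05. Member differences lay between -0.14 for Casq1 and 0.21 for Srl. Atp2a2, the member at a high level in this tissue, read 10.56, 10.58 and 10.46 in wild type and 10.47, 10.52 and 10.57 in transgenic hippocampus. The groups overlapped almost fully, and the 95% interval of the difference ran from -0.39 to 0.36. The genotypes were apart for 0 members, against 13.3% of all probe sets.

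Whether the genotype difference depended on the tissue was tested by the interaction. No member passed the limma F test, against 3.89% of all probe sets. An unadjusted p under 0.05 was found for 2 members, Casq1 (adjusted p = 0.220) and Srl (0.231), against 15.9% of all probe sets. Casq1 passed without wild type heart array 2 (adjusted p = 0.0232), and Srl without wild type hippocampus array 3 (0.0252). The genotype difference of Casq1 was higher in heart than in skeletal muscle by 0.59 ± 0.21 (SE, adjusted p = 0.189), and that of Srl higher in hippocampus than in skeletal muscle by 0.60 ± 0.20 (0.134). For Sln, called in skeletal muscle alone, the hippocampal difference was lower than the skeletal one by a change of -0.70 ± 0.32 (adjusted p = 0.330) and the cardiac one by -0.42 ± 0.32 (0.607). The difference between tissues was therefore not called for Sln, nor for Hrc, whose interaction had adjusted p = 0.570.

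Lists of related genes give the setting of these values in skeletal muscle, where 8.15% of all probe sets were called (3.86% higher and 4.30% lower). Among 9 measured partners of the pump, 1 was higher in transgenic muscle and none lower: Tmem203, an endoplasmic reticulum membrane protein linked to calcium homeostasis, by 0.41 ± 0.09 (SE, adjusted p = 0.00799), a call that ended with the 6 muscle arrays alone (adjusted p = 0.0728). The median difference was 0.023 over these 9 and 0.016 over all probe sets. The lumenal chaperone Calr was at -0.21 (adjusted p = 0.0531).

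The list of kinases, phosphatases and related proteins such as their regulators and anchors held 5 calls among 20 genes. Of these calls 1 was higher and 4 were lower, where 8.15% of all probe sets were called. The catalytic phosphatase subunit Ppp1ca was higher by 0.62 ± 0.07 (SE, adjusted p = 2.7e-05). Lower were the protein kinase A catalytic subunit Prkacb by a difference of -0.67 ± 0.10, the phosphatase inhibitor Ppp1r1a by -1.11 ± 0.17 and the glycogen-targeting phosphatase subunit Ppp1r3c by -1.40 ± 0.25. Camk2a, the fourth lower gene, lies outside the naming rule and is named because the count is small; its -0.48 lost the call without wild type muscle array 2 (adjusted p = 0.0595). With the 6 muscle arrays alone Ppp1ca and Prkacb were the 2 calls of this list.

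Among 21 genes of calcium release and the junction 2 were higher and none lower in transgenic muscle. For this list and the next, the share of all probe sets called was 8.15% (3.86% higher and 4.30% lower). Cacna1c, the cardiac calcium channel subunit, differed by 0.30 ± 0.07 and was not called with the 6 muscle arrays alone (adjusted p = 0.187). Mypn, which encodes the sarcomere protein myopalladin, differed by 0.38 ± 0.09 and was not called with wild type array 2 left out (adjusted p = 0.0526), nor with wild type array 3 (0.0683), transgenic array 1 (0.0569) or transgenic array 3 (0.0547) left out, nor with the muscle arrays alone (0.115). Among 11 other calcium pumps and exchangers 3 were lower: the plasma membrane pump Atp2b3 by a difference of -1.31 ± 0.14, the Golgi pump Atp2c1 by -0.48 ± 0.09 and the sodium-calcium exchanger Slc8a1 by -0.50 ± 0.12, the last not called without wild type array 3 (adjusted p = 0.0628) or transgenic array 2 (0.0633). With the muscle arrays alone Atp2b3 was the 1 call of this list (adjusted p = 0.0248), Atp2c1 having 0.0557 and Slc8a1 0.160.

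In transgenic heart the same lists held 5 calls among 61 measured genes, where 3.19% of all probe sets were called. Calr was lower by a difference of -0.30 ± 0.06, the protein kinase A regulatory subunit Prkar1a by -0.50 ± 0.07, the kinase anchor Akap7 by -0.41 ± 0.10 and the cardiac calcium release channel Ryr2 by -0.38 ± 0.07, while the exchanger Slc8a3 was higher by 0.37 ± 0.08 at a level below the array median. Akap7 lost its call without any 1 of the 6 heart arrays (adjusted p of 0.0638 to 0.152). Calr lost it without wild type array 1 (0.0677) or transgenic array 3 (0.0553). Slc8a3 lost it with either of wild type arrays 1 and 2 left out (0.0640 and 0.0600) and with either of transgenic arrays 2 and 3 left out (0.0502 and 0.0540). None of the 5 was called with the heart arrays alone. In hippocampus limma called 0 of the 61 measured genes of these lists, of which 7 had an unadjusted p under 0.05, against 5.04% of all probe sets.

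Over the 18 arrays, the genes with the most similar pattern were found by Pearson correlation of log2 values, given as a description because all arrays share their 3 tissues. Atp2a1 followed the fast myosin gene Myh1 (r = 0.999), Ampd1 and Tnnt3, and Casq1 followed Mybpc2 (0.997), Fhl3 and Pgm1. Pln was nearest to Myocd (0.999), Mybpc3 and Tnni3, Casq2 to Idh2 (0.997), Antxr2 and Lama2, Hrc to the myoglobin gene Mb (0.999), Crat and Cox8b, and Srl to Sgca (0.998), Asb14 and Slc2a4. Atp2a2, present in all 3 tissues, was nearest to Slc35f6 (0.987), Pfkfb2 and Map3k5. Sln and Atp2a3, whose group means spanned only 1.14 and 0.49, had no gene so close: their best matches were Emc6 (0.853) and Cox15 (0.824).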

How the data were processed

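The deposited series table holds RMA log2 intensity values of 35382 Affymetrix probe sets on 18 arrays. Per the submitters' processing notes the authors made these log2 values with RMA in R 2.10.0, and biotinylated cDNA came from total RNA per the labels' protocols. The number of arrays limits the precision. GEO's probe annotation gave 21153 probe sets a single gene symbol, 1867 several and 12362 none, and unnamed or ambiguous probe sets were tested but not named.

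Values were used as deposited. A model of 6 group means was fitted in limma 3.58.1 (R 4.3.3), with 12 residual degrees of freedom, moderated tests, and Benjamini-Hochberg adjustment over all probe sets; the scripts were tested on simulated data. Every member is described, up to 4 genes with the smallest unadjusted p are named from each other list, and the 3 most correlated genes for each member. Where a gene has several probe sets, the one with the highest mean represents it. Summed levels are log2 of the list's summed linear values, led by its brightest genes. Members and lists were chosen with earlier results of these data known, so they are not independent support. Alternatives were the scaling, the arrays fitted, a replicate block, filters, thresholds, variance settings and leaving out each array. Figures were drawn with matplotlib 3.10.9.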

Additional observations from a re-analysis of the deposited data

How the results depend on the processing

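With 3 arrays a group, the calls of Sln and Hrc in skeletal muscle rest on a spread pooled over all 18 arrays. In skeletal muscle 2884 probe sets were called, 1606 at an adjusted p under 0.01, 838 with the 6 muscle arrays alone and 2262 to 2643 with 1 array left out. The 2 members called became 1 with array weights, 0 at 0.01, 0 with the muscle arrays alone and 0 to 2 with 1 array left out. In heart 1128 probe sets became 395 at 0.01, 1786 at 0.10, 36 with the heart arrays alone and 593 to 989 with 1 array left out, and the members called were 0 to 1. In hippocampus the count of 0 became 1 with array weights. The interaction's 1376 probe sets became 581 at 0.01 and 2176 at 0.10, and its members called were 0 to 1 with 1 array left out. Between hippocampus and skeletal muscle 27667 probe sets became 18401 with single symbols and 16460 as gene means, fewer being tested. Between hippocampus and heart 27165 became 16412 as gene means, fewer being tested, and 17223 under quantile normalization. Apart from the fewer features tested, the cause of these changes was not tested.

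The labels do not say what the array numbers 1 to 3 mark, and these values cannot settle whether they pair the samples. Deviations of same-numbered arrays from their group means correlated at -0.054 to 0.047. Between wild type hippocampus and heart (0.023, 0.047 and 0.035) and between the heart genotypes (0.021, 0.040 and 0.014) each same-numbered pair exceeded the pairs with other numbers. In the other comparisons this did not hold for every number. With the replicate block, limma called 2734 probe sets in skeletal muscle, 1016 in heart and 0 in hippocampus, and 1208 for the interaction, and it changed no member call.

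Sign changes in single members lay in differences not called as deposited, except Pln between hippocampus and skeletal muscle, 0.37 as deposited, -0.89 centred and -1.21 quantile normalized. Atp2a3 turned to -0.046 and -0.26 between heart and skeletal muscle, to -1.12 and -1.40 between hippocampus and skeletal muscle and to -1.07 and -1.14 between hippocampus and heart, and Atp2a1 to -0.92 and -0.52 in the last. With 1 array left out, genotype differences in heart ranged from -0.17 to 0.079 for Atp2a1 and from -0.0061 to 0.087 for Pln. In hippocampus they ranged from -0.21 to 0.27 for Atp2a1, -0.050 to 0.011 for Atp2a2, -0.0022 to 0.13 for Pln and -0.017 to 0.099 for Casq2. Between wild type hippocampus and wild type heart, the tissue differences ranged from -0.036 to 0.081 for Atp2a3 and -0.28 to 0.23 for Sln. Of the single-member values over all alternatives, 1318 kept direction and side of the threshold, 21 lost the call, 15 gained it and 23 changed sign. Signal near the array median limits Sln in all tissues, Atp2a1 outside skeletal muscle and Casq1, Casq2 and Hrc in hippocampus.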
